A study of Homo sapiens with 2 samples.

Results

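MHC class I antigen presentation genes were examined in wild-type HL-60 cells, a human promyelocytic leukaemia cell line. They were 9 genes chosen by name: B2M, TAP1, TAP2, TAPBP, ERAP1, ERAP2, NLRC5, HLA-E and HLA-F. Of these, 7 had at least 1 probe set of their own among the 18404 named genes of the array. HLA-F was read only by probe sets shared with HLA-B, and HLA-E was not analysed here. RNA was hybridised to 2 arrays (Affymetrix Human Gene 1.0 ST), replicates 1 and 2 of unmodified HL-60 by their labels. They formed 1 group with no treatment named, so no genotype or treatment was compared and no test between groups exists. The design text of the series concerns RNA that interacts with the methyltransferase DNMT1, in relation to methylation and expression.

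Class I molecules show fragments of a cell's own proteins to CD8 T cells and NK cells. Proteasomes cut cytosolic proteins into peptides, and the TAP1-TAP2 transporter carries these into the endoplasmic reticulum. There tapasin (TAPBP) holds an empty class I molecule next to the transporter, ERAP1 and ERAP2 trim peptides from their amino end, and beta-2-microglobulin (B2M) is the light chain of every classical class I molecule. NLRC5 is a transcriptional coactivator of class I genes, and HLA-E and HLA-F are non-classical heavy chains. Interferons raise most of these genes in many cell types, in part through interferon regulatory factors that bind an element in their promoters.

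Because of that element, the RefSeq promoter windows (GRCh38.p14) of the members were searched for its core on both strands: the letters GAAA, any 2 bases, and GAAA again, called here the ISRE core. Each window spans 250 bases before to 50 bases after an annotated start, and 7 members had 10 such windows. NLRC5 and HLA-E had no window in the table. The matches are shown because all 7 of these members had one, in 7 of the 10 windows. Each line runs 5′ to 3′ in the direction of the gene, with the matching bases in capitals. TTTC at both ends means that the match lies on the other strand.
B2M: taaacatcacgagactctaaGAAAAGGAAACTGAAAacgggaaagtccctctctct
TAP1: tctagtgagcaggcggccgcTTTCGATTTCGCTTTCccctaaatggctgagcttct
TAP2: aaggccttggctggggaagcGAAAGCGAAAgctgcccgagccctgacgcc
TAPBP: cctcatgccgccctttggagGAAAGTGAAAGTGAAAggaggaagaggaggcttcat
ERAP1: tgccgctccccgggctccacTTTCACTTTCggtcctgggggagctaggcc
ERAP2: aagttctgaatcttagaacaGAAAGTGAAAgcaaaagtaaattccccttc
HLA-F: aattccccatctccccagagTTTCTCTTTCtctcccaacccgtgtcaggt

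The stretch of B2M lies at chr15:44711353-44711408 on the plus strand, and its 2 overlapping matches begin 144 bases before the start. That of TAP1 lies at chr6:32853803-32853858 on the minus strand, with 2 overlapping matches beginning 134 bases before the earlier of its 2 annotated starts. TAP2 has its stretch at chr6:32838768-32838817 on the minus strand, with a match beginning 58 bases before the start. The stretch of TAPBP, at chr6:33314063-33314118 on the minus strand, holds 2 overlapping matches that begin 20 bases before the start. ERAP1 has its stretch at chr5:96807914-96807963 on the minus strand, in the window of the later of its 2 annotated starts. There alone the match lies downstream of the annotated start of its own window, in the first bases transcribed from that start. The ERAP2 stretch is at chr5:96876450-96876499 on the plus strand, with a match beginning 30 bases before the later of its 2 annotated starts. The HLA-F stretch is at chr6:29723258-29723307 on the plus strand, with a match beginning 156 bases before the start. Over all 35116 windows 3.57% held a match, and so did at least 1 window of 4.38% of 27305 genes. The matches describe the reference sequence and not binding, which was not measured.

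Other promoter motifs were less general among the members. CCAAT, the letters bound by NF-Y, was found in 4 of 7 members on either strand (39.7% of all genes), and TGACG, shared with CREB sites, in 2 of 7 (28.4%). The kappaB pattern (GGGA, any 4 bases, CC), on either strand, occurred in 4 of 7 (29% of all genes). TTCNNNGAA, the pattern of STAT dimers, was in 1 of 7 (9.38%), in the TAP1 window without the ISRE core. TATAAA was in 1 of 7 (14%), on the other strand of the TAP2 window, from base -214 to base -209 relative to the start. B2M carried the ISRE core, the kappaB pattern and CCAAT within 100 bases, and its whole window is shown for that arrangement. It lies at chr15:44711267-44711566 on the plus strand, with the matches to these 3 patterns in capitals. The kappaB matches of the 2 strands overlap there, and ATTGG is CCAAT on the other strand.
B2M window: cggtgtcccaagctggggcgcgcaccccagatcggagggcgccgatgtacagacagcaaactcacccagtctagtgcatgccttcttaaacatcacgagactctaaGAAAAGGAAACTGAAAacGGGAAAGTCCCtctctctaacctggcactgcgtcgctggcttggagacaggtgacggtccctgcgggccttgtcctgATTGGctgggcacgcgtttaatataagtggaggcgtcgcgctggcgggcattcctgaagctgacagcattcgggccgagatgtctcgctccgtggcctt

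CpG dinucleotides, the sites of DNA methylation in human cells, varied widely between these windows. The windows of TAP2, TAP1 and B2M with the ISRE core held 24, 22 and 22 CpG, and that of ERAP1 held 28, against a median of 14 over all windows. HLA-F had 17 and TAPBP 12, and the ERAP2 window with the match held 3. The other windows, without a match, held 11 CpG for TAP1, 3 for ERAP1 and 1 for ERAP2. Methylation itself was not measured on these arrays.

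**Figure D1:**
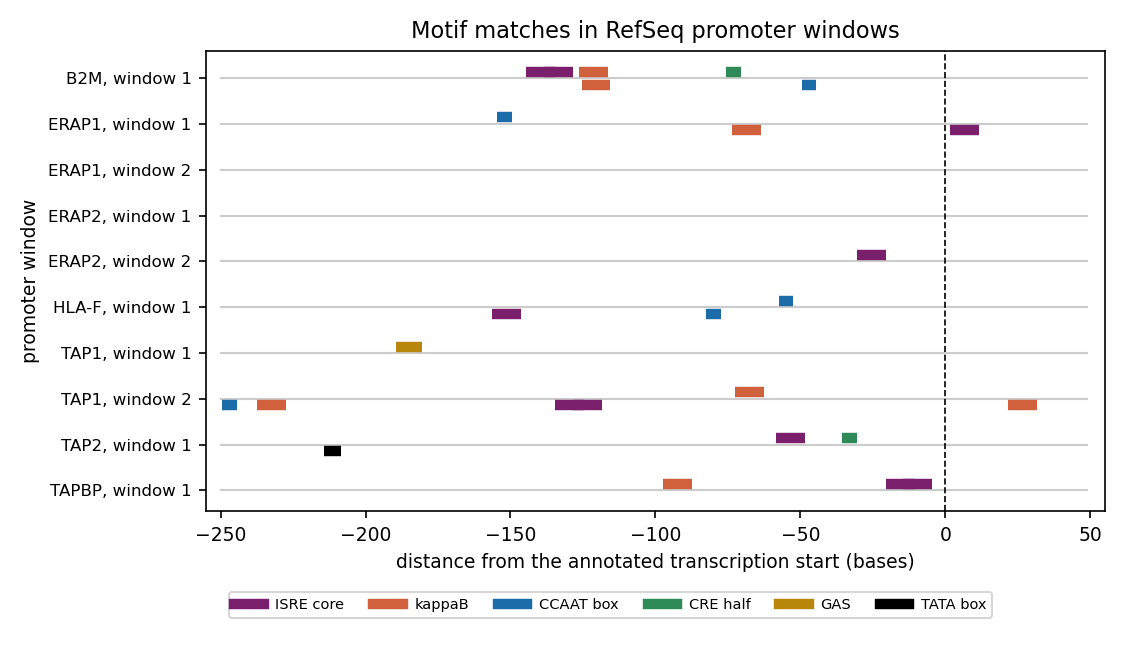
Positions of motif matches in the 10 RefSeq promoter windows of 7 members, in bases from the annotated start (0). Bars above a line match in the direction of the gene and bars below it on the other strand; the purple bars (ISRE core) occur in 7 windows, 1 for each gene.

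Signals are log2 values per probe set, and a gene with several probe sets of its own took their mean. A gene was called above background where it exceeded the 95th percentile of 360 olfactory receptor genes on both arrays (2.98 on replicate 1 and 2.88 on replicate 2), called the lower threshold. A stricter, upper threshold was the same percentile of 116 keratin-associated protein, bitter taste receptor and beta-defensin genes (5.40 and 5.22). By the lower, 6 of the 7 measured members were above background, beside 55.8% of all genes, and by the upper 3 of 7, beside 17.1% of all genes. Their median signal was 4.16, against 3.33 over all genes. With 7 genes these shares describe the set only. Signals depend on the probes, so the order of genes is not an order of transcript abundance, and the number of arrays limits the precision.

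**Figure D2:**
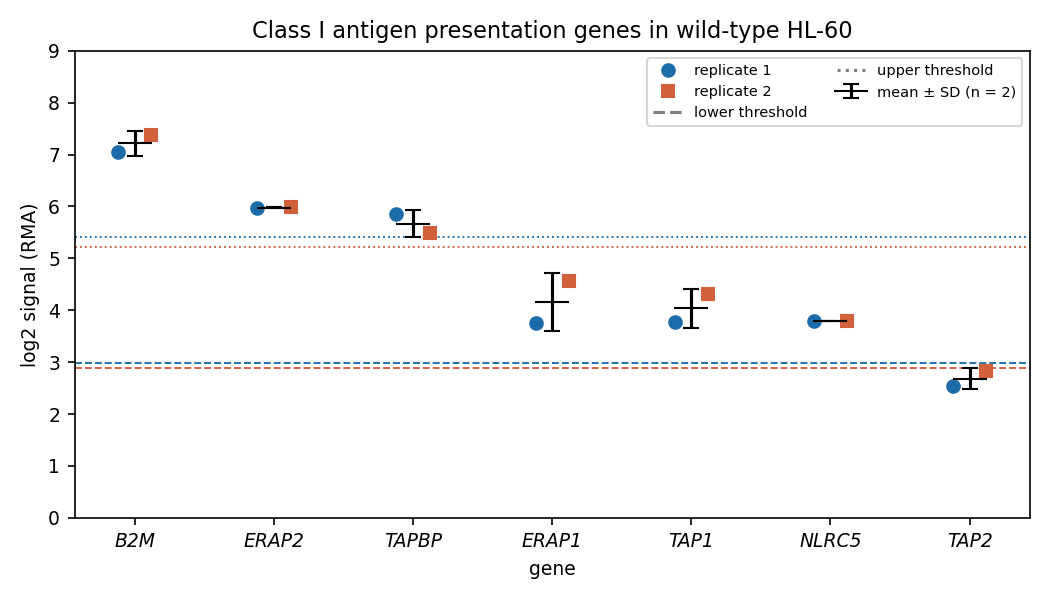
Log2 RMA signal of the 7 members with their own probe sets on each array, with mean ± SD (n = 2). Dashed lines are the lower thresholds and dotted lines the upper thresholds of each array (colours as for the points); B2M, ERAP2 and TAPBP lie above both, and TAP2 below both.

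B2M, the light chain gene, gave the highest signal of the members. It read 7.04 on replicate 1 and 7.38 on replicate 2 (7.21 ± 0.24, SD, n = 2), above 95% and 96.6% of genes. Both arrays placed it well above the upper threshold. Its nearest measured neighbours on chromosome 15, PATL2 (2.84 ± 0.06) and TRIM69 (2.72 ± 0.05), were not above background.

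The transporter genes read lower. TAP1 read 3.77 and 4.31 on replicates 1 and 2 (4.04 ± 0.38), above the lower threshold only. TAP2 read 2.54 and 2.82 as the mean of its 3 probe sets (2.68 ± 0.20), below the lower threshold by 0.44 on replicate 1 and by 0.05 on replicate 2. That call rested on the choice of probe set. The separate TAP2 probe sets read 2.84 and 3.25, 1.13 and 1.71, and 3.64 and 3.51, and only the third was above background on both arrays. All 3 list the same 11 accessions, and their means spanned 2.16 on the log2 scale. Among 24 groups of 3 probe sets that list the same accessions, the median span was 1.82. Of these groups, which include TAP2 and TAPBP themselves, 50% spanned at least as much as TAP2. The order of TAP1 and TAP2 on the arrays is therefore not an order of their transcripts.

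Tapasin, which bridges the transporter and the empty class I molecule, was above both thresholds. TAPBP read 5.86 and 5.49 (5.67 ± 0.26). Its 3 probe sets, again with 1 common list of 11 accessions, read 4.69 and 4.39, 7.22 and 6.48, and 5.66 and 5.59. All were above the lower threshold on both arrays, while the first was below the upper threshold. The span of their means was 2.30, and 41.7% of the groups of 3 spanned as much. Its neighbours on chromosome 6, RGL2 (3.34 ± 0.35) and ZBTB22 (5.40 ± 0.29), were above the lower threshold.

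**Figure D3:**
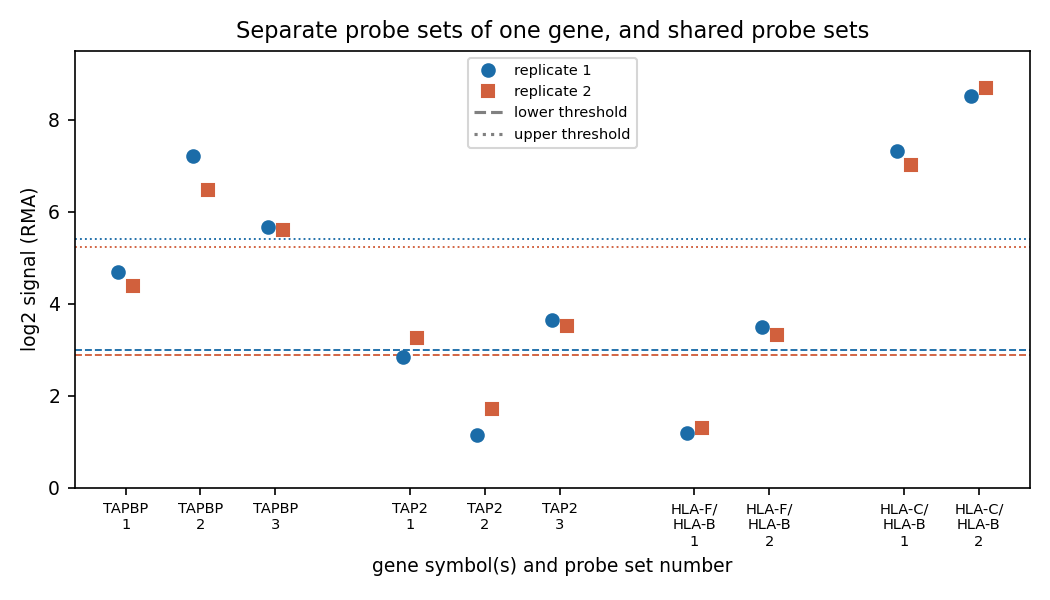
Log2 RMA signal on each array of the separate probe sets of TAPBP and TAP2, and of probe sets whose annotation names HLA-F with HLA-B or HLA-C with HLA-B. Probe sets annotated to the same gene differed by up to 2.30 (TAPBP) in mean signal, far more than the arrays did.

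The genes of the peptide-trimming enzymes read differently, both in signal and in the difference between the arrays. A single difference per gene is no measure of the error of either. ERAP2 read 5.97 and 5.98 (5.97 ± 0.01), above both thresholds and at percentiles 87.3 and 87.6 of all genes. ERAP1 read 3.76 and 4.56 (4.16 ± 0.57), above the lower threshold only. Its SD was the widest among the members, and its percentile went from 58.5 on replicate 1 to 70.8 on replicate 2. The genes lie next to each other on chromosome 5, with CAST (4.14 ± 0.12) before ERAP1 and LIX1 (1.87 ± 0.42) after ERAP2, the latter not above background.

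NLRC5 read 3.80 on both arrays (percentiles 59.2 and 58.9), above the lower threshold only. The deposited values were exactly equal, as they were for 5.23% of all genes and 4.44% of the 3330 genes within 0.5 of its mean signal, so its SD of 0.00 is no measure of its error. On chromosome 16 its neighbour CPNE2 (4.90 ± 0.08) was above the lower threshold and CETP (1.74 ± 0.21) was not.

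For the heavy chains, no probe set belonged to 1 symbol alone. HLA-F was named with HLA-B on 2 probe sets that list the same number of accessions, 12. One read 1.18 and 1.30 on replicates 1 and 2 and the other 3.50 and 3.31, so only the second was above background. A further 2 probe sets were named for HLA-C together with HLA-B. These read 7.32 and 7.02, and 8.51 and 8.69, above the upper threshold on both arrays. Class I heavy chains are near-identical over long stretches and differ between people, so none of these signals can be given to 1 gene. Around HLA-F, ZFP57 (3.03 ± 0.27) and HCG4 (2.92 ± 0.10) were not above background, and around HLA-E the pseudogene HLA-L (2.52 ± 0.07) was not and GNL1 (3.80 on both arrays) was.

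The arrays were then compared member by member, with 1 array on each side and no replicate check. Replicate 2 was higher for 5 of 7 members, lower for TAPBP and equal for NLRC5, and 42.1% of all genes were higher on replicate 2. The median difference (replicate 2 minus replicate 1) was 0.28, against -0.04 over all genes. With the highest probe set per gene TAP2 turned to -0.13, so 4 of 7 members were higher and the median difference was 0.02. Over all genes the difference had an SD of 0.39. No member differed by more than 1, as did 1.96% of genes, and 2 members differed by more than 0.5, as did 17.5% of genes.

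ERAP1 was 0.80 higher on replicate 2, or 1.74-fold, and 6.28% of the 2930 genes within 0.5 of its mean signal differed at least as much. TAP1 was 0.53 higher (1.45-fold), a size that 17.3% of 3036 such genes reached. B2M was 0.34 higher, TAP2 0.28 higher and ERAP2 0.02 higher, and the same share was 38.7% for B2M, 40% for TAP2 and 95.8% for ERAP2. TAPBP was lower on replicate 2 by 0.37 (difference -0.37), a size that 37.8% of genes near its signal reached. The 3 TAP2 probe sets did not run one way, with differences of 0.41, 0.58 and -0.13, whereas those of TAPBP were all negative (-0.30, -0.74 and -0.06). PSMB9, which lies head to head with TAP1, was 0.48 lower on replicate 2 (difference -0.48), opposite to TAP1. Genes of the promyelocyte marker list had a median difference of -0.91. Of these, 4 of 6 were lower on replicate 2, beside 9687 of 18404 genes, while ELANE and AZU1 were higher by 0.24 and 0.18. The part of this list in the differences of the members was not tested.

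**Figure D4:**
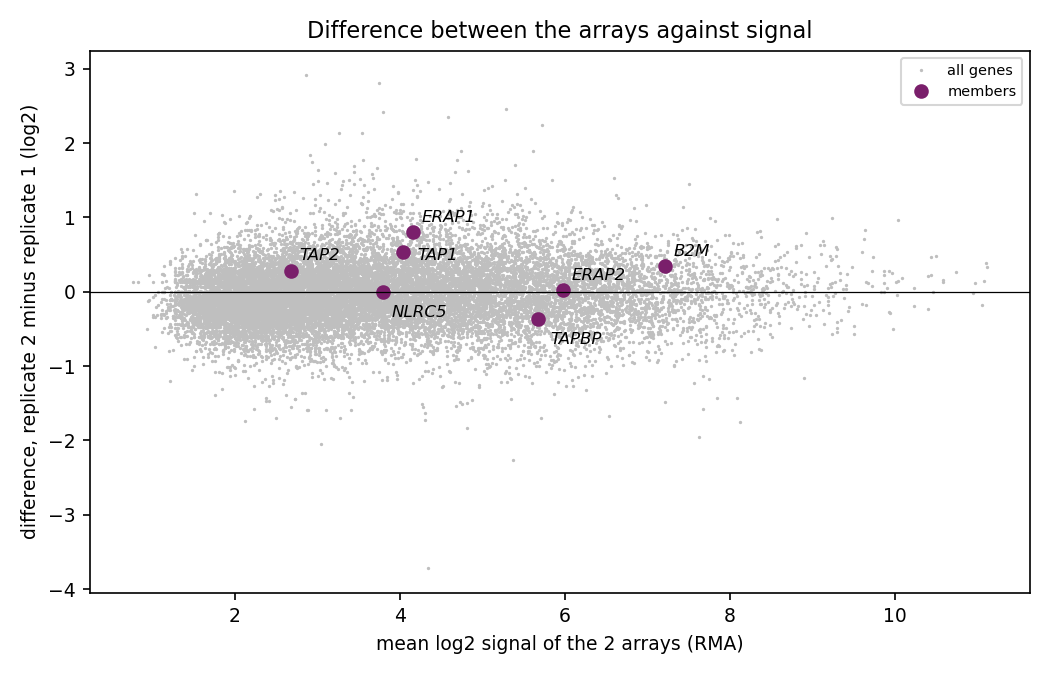
Difference between the arrays (replicate 2 minus replicate 1, log2) against mean log2 signal for 18404 genes (grey) and the 7 members (purple). The members lie within the cloud of all genes, from -0.37 (TAPBP) to 0.80 (ERAP1).

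Genes that act with the members were taken from lists. Their counts above the lower threshold are set against the same 55.8% of all genes, and those above the upper one against 17.1%. All 8 measured genes of the peptide loading list were above the lower threshold and 6 above the upper one, with a median of 6.98. The chaperones calreticulin (CALR, 9.94 ± 0.20), calnexin (CANX, 9.31 ± 0.24) and HSPA5 (8.29 ± 0.27), which serve many glycoproteins, gave the highest signals. The oxidoreductase PDIA6 read 7.39 on both arrays, and the folding sensor UGGT1 (6.57 ± 0.11) and the glucosidase subunit GANAB (5.94 ± 0.04) were above the upper threshold too. BCAP31 (5.13 ± 0.08) and the tapasin-related editor TAPBPL (4.06 ± 0.15) were above the lower threshold only.

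All 5 immunoproteasome genes were above the lower threshold and 3 above the upper one, beside 55.8% and 17.1% of all genes. The activator subunits PSME1 (7.46 ± 0.05) and PSME2 (6.39 ± 0.39) and the catalytic subunit PSMB10 (5.60 ± 0.16) passed both. PSMB8 read 4.11 and 4.31 (4.21 ± 0.14) and PSMB9 4.65 and 4.18 (4.41 ± 0.34), between the thresholds. They lie beside TAP1 and TAP2 on chromosome 6, and on the arrays all but TAP2 fell between the thresholds. HLA-DOB, a class II gene before TAP2, was not above background (1.51 ± 0.25). The constitutive counterparts PSMB7 (8.93 ± 0.21) and PSMB5 (5.94 ± 0.31) passed both thresholds and PSMB6 (5.29 ± 0.24) the lower one. The ISRE core was present in windows of 4 of the 5 immunoproteasome genes, PSMB8, PSMB10, PSME1 and PSME2, beside 4.38% of all genes. It was also in windows of 3 of 12 genes of the class I transcription list (RFX5, RELA and USF1), 1 of 9 peptidases (LAP3) and 1 of 9 interferon signalling genes (SOCS1). None of the 8 peptide loading genes with a window held it, a count near what the share over all genes gives.

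Class I-like molecules were mostly not above background. Of 16 measured, 5 passed the lower threshold and 0 the upper one, with a median of 2.62. Among all genes the shares were 55.8% and 17.1%. MR1, which presents vitamin B metabolites to MAIT cells, read 3.57 and 4.86 (4.21 ± 0.91), the widest spread on this list. The neonatal Fc receptor gene FCGRT (3.87 ± 0.14) and the NKG2D ligands MICB (3.62 ± 0.48), MICA (3.53 ± 0.30) and ULBP1 (3.37 ± 0.00) also passed. ULBP2 (2.84 ± 0.62) and PROCR (3.24 ± 0.39) each passed on 1 array only. The others were ULBP3 (2.42 ± 0.25), RAET1E (1.75 ± 0.21), HFE (1.68 ± 0.03), AZGP1 (1.95 ± 0.09), and the lipid-presenting CD1D (2.81 ± 0.13), CD1C (2.32 ± 0.01), CD1E (2.03 ± 0.38), CD1A (1.96 ± 0.31) and CD1B (1.66 ± 0.14). None of the 18 genes of this list with a promoter window held the ISRE core there, beside the same 4.38% of all genes.

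**Figure D5:**
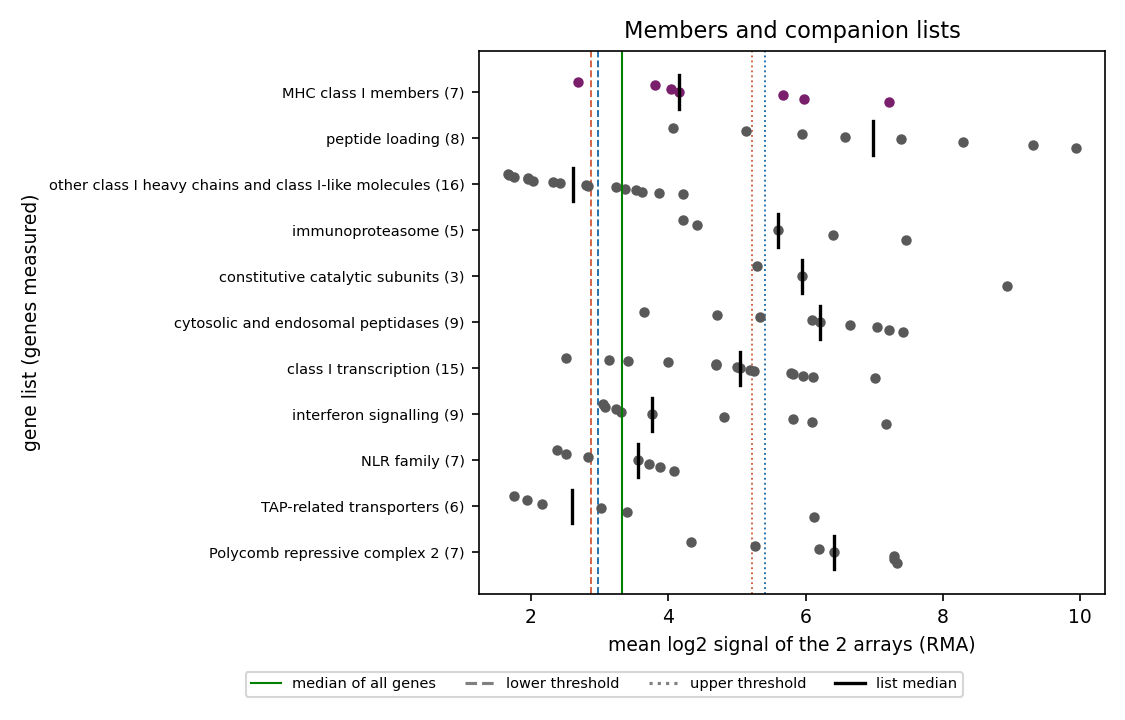
Mean log2 RMA signal of each gene (points) and median (black bar) for the members and 10 companion lists, with the number measured. Dashed and dotted lines are the thresholds of each array and the green line is the median of all genes, 3.33; the class I-like list (2.62) and the TAP-related transporters (2.59) have their medians below the lower thresholds.

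Of 15 measured factors of the class I transcription list, 13 were above the lower threshold and 5 above the upper one. The shares of all genes were 55.8% and 17.1%. CREB1 (7.01 ± 0.00) and IRF2 (6.11 ± 0.23) gave the highest signals. CIITA, the class II coactivator related to NLRC5, was the lowest and not above background (2.52 ± 0.08). Of 9 interferon signalling genes, 8 passed the lower threshold and 3 the upper one. JAK1 (7.16 ± 0.10) and the interferon gamma receptor gene IFNGR1 (6.09 ± 0.07) were highest. JAK2, the lowest, read 2.60 and 3.50 (3.05 ± 0.63) and passed on replicate 2 only. All 9 cytosolic and endosomal peptidases passed the lower threshold and 6 the upper one, from DPP3 (3.64 ± 0.18) to NRDC (7.21 ± 0.04) and TPP2 (7.41 ± 0.15).

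Markers of promyelocytes and of other cells were read on the same arrays. All 6 promyelocyte markers were above the lower threshold and 3 above the upper one. CTSG (8.12 ± 1.24), MPO (7.84 ± 0.52) and PRTN3 (7.21 ± 1.04) passed both. MS4A3 (5.43 ± 0.78) and ELANE (4.59 ± 0.17) passed the lower one on both arrays. AZU1 read 3.01 and 3.19, narrowly above the lower thresholds of 2.98 and 2.88. Beside 55.8% of all genes, the counts above the lower threshold were 2 of 7 for T and NK cells, 3 of 4 for B cells, 0 of 6 for monocytes and dendritic cells, 0 of 2 for erythroid cells and 2 of 5 for epithelium and stroma. In these 5 lists 0 genes passed the upper threshold, beside 17.1% of all genes. The highest signals were those of NKG7 (4.34 ± 0.13) among T and NK cell markers, KRT18 (3.95 ± 0.02) and COL1A1 (3.69 ± 0.09) among those of epithelium and stroma, and CD79B (3.26 ± 0.10) among those of B cells.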

How the data were processed

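HL-60 RNA was isolated with Trizol, treated with DNase, amplified from 200 ng and labelled with biotin, per the labels' protocols. The authors deposited 1 log2 value per probe set and array, computed with RMA (which corrects background, equalises the arrays' quantiles and summarises probes), per the submitters' processing notes. Software version, annotation build and log base were not given in the sources used here. Base 2, as RMA uses, was assumed. RMA aligns the distributions of arrays, so a global difference cannot be seen.

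Of 32321 probe sets, 19158 had 1 gene symbol, 1388 several, and 11775 were not listed in the platform annotation. Symbols were updated through Entrez IDs (19128 of 19158 found in the RefSeq table, GRCh38.p14). Both arrays are 1 group, the labels do not say whether they came from separate cultures, and the spread may be technical. No p-values were computed. The members and lists were chosen with earlier results of these data known. Genes named are the members, all of the peptide loading, class I-like and immunoproteasome lists, the 2 highest and the lowest of the other companion lists, and members' nearest measured neighbours. ABCB9, the other genes named for the ISRE core and the markers of promyelocytes and of other cells were named after their values were seen. No genes were named for likeness of pattern, since 2 arrays give correlations of 1 or -1 only. Protein sequences were not used here. The threshold step was tested on simulated arrays, and the normalization steps on the deposited values with a known trend added to replicate 2. The motif search was tested on 1 made-up sequence in the forward direction only, so its search of the other strand was not tested. Alternatives were a 99th percentile, the second background set, the highest probe set, inclusion of shared probe sets, quantile normalization, a loess trend, each array alone, and genes above background only. Python 3.11.15, numpy 2.4.6, pandas 2.3.3, statsmodels 0.14.6 and matplotlib 3.10.9 were used.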

Additional observations from a re-analysis of the deposited data

How the results depend on the processing

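No paired analysis was possible because both arrays belong to 1 group. The same 6 members were above background with the lower threshold at the 99th percentile and after the loess trend was removed. They were also the same after quantile normalization, a step that RMA had already applied. On each array alone they were again the same 6, but their number could not fall there, since the call needs both arrays. With shared probe sets included the count was 6 of 8 measured members, without HLA-F. With the highest probe set per gene it was 7, TAP2 joining. With the second background set, which puts the threshold higher, it was 3 members in place of 6 and 31 companion genes in place of 64. The share of all genes fell likewise, to 17.1% in place of 55.8%. The median signal of the members was 3.80 to 4.56 on single arrays, in place of 4.16. The median difference between arrays ran from 0.02 (highest probe set) to 0.34 (quantile normalization), and the difference of TAP2 changed sign with its highest probe set (-0.13 in place of 0.28). Of 166 recomputed values 147 stayed within 1.5 times the count or within the spread between arrays and 19 moved. Among those that moved were the TAP2 and TAPBP signals with the highest probe set (3.58 and 6.85). Part of the 147 could not move, so their number is no measure of stability. Removing the loess trend leaves each mean signal as it was. The choice of probe set cannot change a member with 1 probe set of its own. At the 99th percentile the class I-like list had 1 gene above background in place of 5 and the interferon signalling list 4 in place of 8. Among all 18404 genes, 7365 were above background there in place of 10266. Background correction and scan batches need scanner files and were not examined.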

Other observations

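Genes related to the members by family or by known repression were read as well. Of 7 measured relatives of NLRC5 in the NLR family, 4 were above the lower threshold, a share near the 55.8% of all genes, and 0 above the upper one (17.1% of all genes). NAIP (4.08 ± 0.04) and the mitochondrial NLRX1 (3.88 ± 0.32) were the highest, and the inflammasome sensor NLRP3 (2.39 ± 0.21) the lowest. Of 6 relatives of TAP1 and TAP2 among the ABCB transporters, 2 passed the lower threshold. With that threshold at the 99th percentile the counts fell to 2 NLR genes and 1 transporter, and that of all 18404 genes from 10266 to 7365. The mitochondrial ABCB10 read 6.13 ± 0.16 and ABCB8 3.40 ± 0.31, while the lysosomal peptide transporter ABCB9 (2.17 ± 0.06) and the phospholipid transporter ABCB4 (1.75 ± 0.21) did not pass. All 7 genes of Polycomb repressive complex 2, which deposits a repressive histone mark, passed the lower threshold and 5 the upper one. MTF2 (7.33 ± 0.14) and SUZ12 (7.29 ± 0.15) were the highest and PHF19 (4.33 ± 0.08) the lowest.

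Over all genes, the letters shared by the members' promoters were somewhat less frequent among genes above background, a difference that was not tested. The ISRE core, GAAA before and after any 2 bases, was present in a window of 3.59% of 8267 genes above the lower threshold, 4.86% of 5963 genes not above it, and 3.79% of 2721 genes above the upper threshold.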
